A study of Homo sapiens with 4 samples.

Results

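The galectin genes LGALS1, LGALS2, LGALS3, LGALS4, LGALS8 and LGALS9 and the gene of the galectin-3 binding protein, LGALS3BP, were followed in LoVo cells with and without the MET receptor tyrosine kinase. They were chosen by name, with earlier results of these data known, and are 7 of the 58825 gene rows of the count tables. RNA sequencing of transcript 3′ ends was available for 4 libraries of LoVo, a human colon adenocarcinoma cell line with a constitutively active MET receptor. The MET+ group was made of 2 libraries of control cells (WT genotype in the labels), and the MET-KO group of 2 libraries of cells whose MET gene was knocked out with CRISPR/Cas9. Both groups are described as LoVo cells and as grown in the same serum-containing medium. MET-KO cells were isolated as single clones, and the sources used here do not say whether both MET-KO libraries came from the same clone. The replicates are labelled as biological.

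Galectins are lectins that share a conserved domain for β-galactoside sugars. They lack a secretion signal, are found in the cytosol and nucleus, and also reach the cell surface by an unconventional route, where they cross-link glycoproteins. Prototype galectins such as galectin-1 and galectin-2 carry a single sugar-binding domain and act as dimers, the chimera galectin-3 joins such a domain to a long tail through which it assembles, and the tandem-repeat galectins-4, -8 and -9 hold a pair of different domains in the same chain. LGALS3BP is not a galectin but a heavily glycosylated secreted protein that galectin-3 and others bind. In the intestine, galectin-3 and galectin-4 are known as products of the epithelium.

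The libraries held 8429142 and 10286552 counts in MET+ and 10137583 and 10228991 in MET-KO. MET itself, read first as the check of the labels, fell from 337 and 335 CPM (normalised read counts per 1000000 counts, scaled by the trimmed mean of M values, TMM) in MET+ to 84.3 and 88.7 in MET-KO, a log2 fold change of −1.96 (SE 0.09, edgeR's quasi-likelihood test, p adjusted after Benjamini-Hochberg = 1.49e-18). A tag at the 3′ end does not report whether the reading frame was cut. Of 10 markers of colon epithelium, 9 had counts, with summed levels of 9654 and 9686 CPM in MET+ and 8306 and 7322 CPM in MET-KO. The largest part of these sums was KRT18, at 6172 and 5850 CPM against 5118 and 4621 CPM. Of the 9 tested, 2 were called higher in MET-KO and 6 lower, which is 88.9% beside 54.1% of all tested genes. CDH17, VIL1 and KRT20 passed the filter on low counts only through the group in which they were high, which raises this share. Among the lower were EPCAM (439 and 435 CPM against 195 and 211) and CDH1 (144 and 140 CPM against 79.0 and 75.5). Within that list CDH17, an intestinal cadherin, held 212 and 229 counts against 0 and 0, and KRT20, a keratin of mature enterocytes, 0 and 0 against 27 and 28. Markers of fibroblasts (2 of 6 at 0 everywhere, COL1A2 and DCN) summed to 1.64 to 2.17 CPM in MET+ and 3.62 to 4.23 CPM in MET-KO. Those of leukocytes (4 of 6 at 0 everywhere, PTPRC among them) summed to 0.587 to 1.64 CPM over the 4 libraries, and those of endothelium (CDH5 at 0) to at most 0.922 CPM. The groups also stood apart beyond MET: 9 Y-linked genes held 0 and 0 counts in MET+ but 6773 and 6756 in MET-KO, and 54.1% of the 13801 tested genes passed an adjusted p of 0.05. The loss of MET and any other difference between the control cells and the isolated clone cannot be told apart in these libraries.

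The start regions of LGALS3, LGALS4 and LGALS9 are shown because these 3 genes fell and because the sequences differ widely in CG dinucleotides, which are written in capitals. Each is the 250 bases before the RefSeq transcript start on build GRCh38.p14, 5′ to 3′ on the gene's strand. The LGALS3 stretch lies at chr14:55129002-55129251 (+ strand), that of LGALS4 at chr19:38812946-38813195 (− strand) and that of LGALS9 at chr17:27630938-27631187 (+ strand).
LGALS3: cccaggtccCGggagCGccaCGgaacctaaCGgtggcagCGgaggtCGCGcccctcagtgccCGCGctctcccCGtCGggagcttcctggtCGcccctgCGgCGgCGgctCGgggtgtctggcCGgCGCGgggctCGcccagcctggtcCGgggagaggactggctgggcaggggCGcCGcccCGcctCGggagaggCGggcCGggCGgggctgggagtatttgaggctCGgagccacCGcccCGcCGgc
LGALS4: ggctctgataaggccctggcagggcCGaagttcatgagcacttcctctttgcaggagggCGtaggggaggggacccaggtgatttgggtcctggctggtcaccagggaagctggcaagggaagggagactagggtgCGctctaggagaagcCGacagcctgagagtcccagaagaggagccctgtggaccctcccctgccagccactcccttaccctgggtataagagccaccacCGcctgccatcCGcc
LGALS9: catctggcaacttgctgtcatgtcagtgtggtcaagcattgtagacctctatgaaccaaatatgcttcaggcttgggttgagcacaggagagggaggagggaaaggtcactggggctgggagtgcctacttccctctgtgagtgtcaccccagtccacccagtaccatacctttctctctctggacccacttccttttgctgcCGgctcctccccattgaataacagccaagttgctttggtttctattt

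The LGALS3 stretch holds 32 CG dinucleotides, that of LGALS4 holds 6 and that of LGALS9 holds 1. Over the longer window that also takes in the 50 bases after the start, LGALS3 was 78.3% G or C with 39 CG, LGALS4 was 62.7% with 7 CG and LGALS9 was 50.7% with 2 CG, against medians of 58.7% and 14 CG over the 35116 RefSeq start windows of the same length. The letters GGGCGG, searched on both strands, were found 3 times for LGALS3 and not for LGALS4 or LGALS9, and 45.0% of all windows hold them. Of the others, 3 starts of LGALS8 were listed, with 2, 16 and 24 CG, and LGALS3BP and LGALS2 had 4 and 6. In all, 6 of the 7 genes were matched by symbol, and LGALS1 was not in the table used. No readout of these libraries, which count 3′ ends, tells which start was used.

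Among the 7 genes, LGALS1 and LGALS8 were higher in MET-KO cells, LGALS3, LGALS4 and LGALS9 were lower, LGALS3BP was tested and did not pass, and LGALS2 had no count in any library. The same test called 27.2% of all tested genes higher and 26.9% lower, so that 5 called of 6 tested stands beside a background of 54.1%. These genes and the lists used here were chosen with earlier results of these data known, so the shares called are descriptions and not tests. All 7 were accounted for by the filter on low counts: LGALS4 reached the required level in the 2 MET+ libraries alone and LGALS9 in both MET+ and 1 MET-KO library, so their entry into the test depended on the group in which they were high. The median log2 fold change of the 6 tested genes was −0.28, against 0.01 for all tested genes. MET+ and MET-KO values did not overlap for any of the 6, which was also so for 75.6% of all tested genes. With 2 libraries against 2, an exact two-sided permutation test of a single gene cannot go below p = 0.333, and the adjusted p-values given here therefore come from the fit across all genes.

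**Figure D1:**
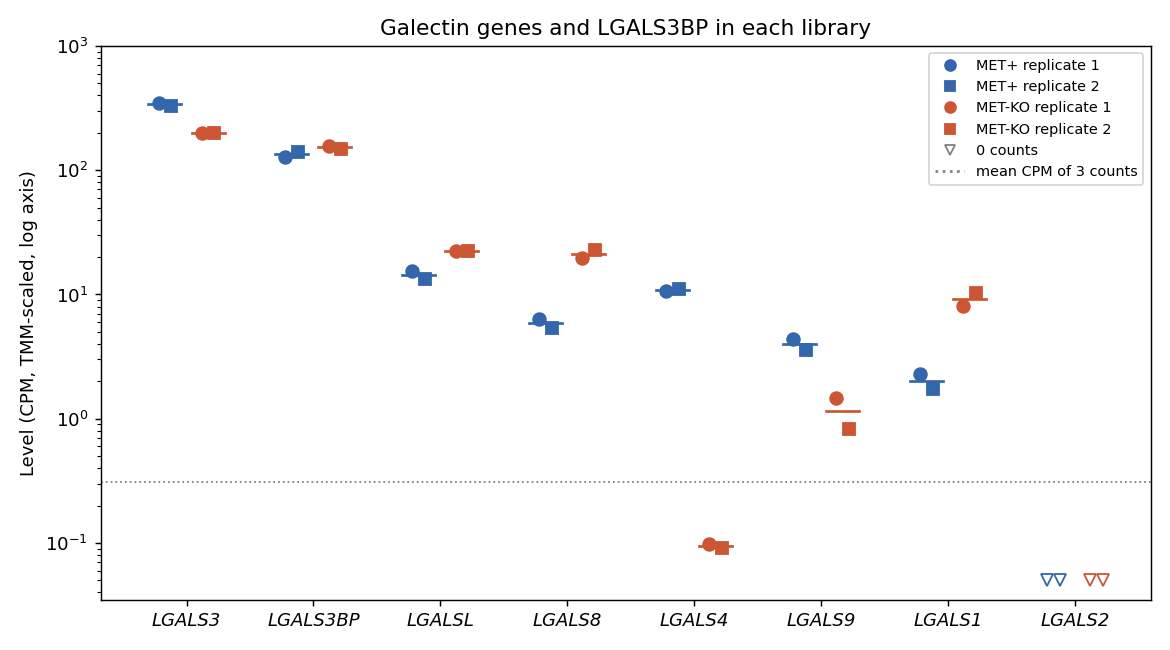
Level of each gene in each library in TMM-scaled CPM on a log axis, with a horizontal bar at each group's mean (n = 2) and open triangles, drawn at an arbitrary height, for 0 counts. LGALS3 and LGALS3BP lie above 100 CPM in all 4 libraries, LGALS1 and LGALS8 are higher in MET-KO, LGALS9 is lower, and the MET-KO points of LGALS4 stand below the dotted line that marks the mean CPM of 3 counts.

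LGALS1 encodes galectin-1, a prototype galectin known for binding laminin and fibronectin and for its production by mesenchymal cells. The gene (ENSG00000100097) lies on chromosome 22 from 37675608 to 37679806, + strand, in GRCh38. It held 19 and 17 counts in MET+ against 83 and 111 in MET-KO, which are levels of 2.29 and 1.74 CPM against 8.12 and 10.2 CPM. Both MET-KO libraries stood well above both MET+ libraries. The means were 2.02 ± 0.389 and 9.16 ± 1.47 CPM (SD, n = 2), and the fitted difference was 4.57-fold, a log2 fold change of 2.19 (SE 0.31, 95% interval 1.55 to 2.83; edgeR's quasi-likelihood test, adjusted p = 3.82e-07). Even so it stayed a low-level transcript, moving from the 14.7th to the 34.4th percentile of tested genes. The fibroblast markers given above, which LGALS1 is known to accompany in tissue, summed to under 5 CPM in every library, and their part in the result was not tested. Of the 6 markers 2 could be tested, COL3A1 with 4 and 5 counts in MET+ against 24 and 26 in MET-KO, which was called higher, and COL1A1 with 13 and 10 against 13 and 19, which was not (edgeR's quasi-likelihood test, adjusted p = 0.00109 and 0.718). COL3A1 passed the filter on low counts only through the MET-KO group. PDGFRB held 1 and 1 counts against 0 and 0, and LUM a single count in 1 MET-KO library. In bulk RNA, more cells with the transcript and more transcript per cell cannot be told apart, here and for every gene below.

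LGALS2, the other prototype galectin of the set (ENSG00000100079, chromosome 22, 37570246 to 37582616, − strand), is a neighbour of LGALS1, with 92991 bases between them. It had 0 counts in all 4 libraries, and 3 counts, taken as the limit that a count of 0 allows, are worth 0.276 to 0.362 CPM. This limit covers counting error only, and not differences between replicates. LGALS2 was therefore not detectable at this depth and no fold change was computed.

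LGALS3 encodes galectin-3, the chimera galectin, which binds branched N-glycans at the cell surface and has further roles in the nucleus and at damaged vesicles. It lies on chromosome 14 from 55124110 to 55145413, + strand (ENSG00000131981), and was the most abundant galectin transcript in every library. Its counts were 2877 and 3209 in MET+ and 2046 and 2176 in MET-KO, or 347 and 329 CPM against 200.2 and 199.97 CPM. The groups were far apart relative to the spread within them, and the MET-KO libraries were almost identical. The mean fell from 338 ± 12.9 to 200.1 ± 0.201 CPM (SD, n = 2), so that 59.2% of the MET+ level was left, a log2 fold change of −0.76 (SE 0.09, 95% interval −0.94 to −0.57; edgeR's quasi-likelihood test, adjusted p = 1.04e-08). In rank it moved little, from the 97.3rd to the 95.5th percentile of tested genes.

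The decrease of LGALS3 stood on a chromosome whose genes were lower as a whole. The other 478 tested genes of chromosome 14 were centred on −0.51 on the log2 scale (median, with quartiles of −0.93 and −0.14), and 20.5% of them were above 0. LGALS3 sat at their 34.7th percentile, 0.24 log2 units under their median. Among the 65 tested genes within 5 Mb, where the median was −0.32, it was at the 18.5th percentile. The copy number of chromosome 14 was not measured in these files, and its part in the result was not tested.

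The remaining genes were on chromosomes centred close to 0. LGALS1 was at the 93.9th percentile of 345 other genes of chromosome 22 (median 0.08) and LGALS8 at the 93.3rd of 1418 of chromosome 1 (median 0.06). LGALS9 was at the 3.89th percentile of 874 genes of chromosome 17 (median 0.05), and LGALS3BP, on the same chromosome, at the 57.6th. LGALS4 was at the 0.688th percentile of 872 genes of chromosome 19 (median 0.01). Counted within 5 Mb, the percentiles were 90.5 for LGALS1 (116 genes), 94.3 for LGALS8 (35 genes), 1.41 for LGALS9 (71 genes), 62.7 for LGALS3BP (166 genes) and 1.36 for LGALS4 (147 genes).

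LGALS3BP, the secreted ligand (ENSG00000108679, chromosome 17, 78971238 to 78980109, − strand), was the second most abundant transcript of the set in both groups. Its levels were 127 and 141 CPM in MET+ and 158 and 149 CPM in MET-KO, from 1052, 1379, 1613 and 1619 counts. The MET-KO values were both higher, by a margin smaller than the gap between the MET+ libraries. Means of 134 ± 10.2 and 153 ± 6.43 CPM (SD, n = 2) gave a log2 fold change of 0.19 (SE 0.09, 95% interval −0.00 to 0.39), which did not pass edgeR's quasi-likelihood test (adjusted p = 0.0868). An alternative scaling and a stricter filter did call it, with values of 0.29 and 0.23 given in the closing section. The ratio of LGALS3BP to LGALS3 was not tested.

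LGALS4 encodes galectin-4, a tandem-repeat galectin of the digestive tract known for carrying glycoproteins to the apical surface of enterocytes. It lies on chromosome 19 from 38801671 to 38813364, − strand (ENSG00000171747), 9921 bases from LGALS7B. It held 89 and 107 counts in MET+ (10.7 and 10.97 CPM) and a single count in each MET-KO library (0.0979 and 0.0919 CPM). The MET+ libraries were alike, and both MET-KO libraries were below the level of 3 counts. The summed counts of 196 and 2, scaled by library, made a 115-fold lower level in MET-KO, with an exact 95% counting interval of 31.3 to 953. Mean levels were 10.9 ± 0.161 and 0.0949 ± 0.00423 CPM (SD, n = 2). Each MET-KO library held a single count, so the SD of 0.00423 shows library scaling only and not replicate spread. The fit gave an adjusted p of 5.54e-13 by edgeR's quasi-likelihood test. The fitted log2 fold change of −6.66 (SE 0.52) depends on the prior count added to so few reads. Within the epithelial marker list, CDH17 was at 0 in MET-KO, at least 86.2-fold lower, and VIL1, a microvillus protein, held 43 and 58 counts against 3 and 3, whereas CDX2, a transcription factor of intestinal identity, held 525 and 648 against 1477 and 1338. Their part in the result was not tested.

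LGALS8 encodes galectin-8, a tandem-repeat galectin known for recognising host glycans on ruptured endosomes and recruiting the autophagy receptor CALCOCO2. The gene (ENSG00000116977) covers 236518000 to 236552981 of chromosome 1, + strand. Counts of 53 and 52 in MET+ and 199 and 247 in MET-KO were worth 6.39 and 5.33 CPM against 19.5 and 22.7 CPM. The groups were well separated, with both MET-KO libraries above both MET+ libraries. The means were 5.86 ± 0.753 and 21.1 ± 2.28 CPM (SD, n = 2), with a log2 fold change of 1.85 (SE 0.20, 95% interval 1.44 to 2.27; edgeR's quasi-likelihood test, adjusted p = 1.69e-09).

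The LGALS8 locus is overlapped on the opposite strand by LGALS8-AS1, AL359921.1, AL359921.2 and HEATR1. LGALS8-AS1 held 0 and 0 counts in MET+ and 22 and 5 in MET-KO, AL359921.2 held 13 and 11 against 11 and 23, and AL359921.1 held 11 and 17 against 22 and 21. HEATR1, a factor of ribosome production, had a log2 fold change of −0.06 (edgeR's quasi-likelihood test, adjusted p = 0.68). The strand setting of the authors' counting is not given in the sources used here, so reads of LGALS8 and of these genes may not be fully separated.

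LGALS9 encodes galectin-9, a tandem-repeat galectin known as a ligand of the immune receptor HAVCR2 (TIM-3). It lies on chromosome 17 from 27629798 to 27649560, + strand (ENSG00000168961). It held 36 and 35 counts in MET+ against 15 and 9 in MET-KO, or 4.34 and 3.59 CPM against 1.47 and 0.827 CPM. Both MET-KO libraries were lower, on few reads. The mean fell from 3.97 ± 0.535 to 1.15 ± 0.453 CPM (SD, n = 2), a log2 fold change of −1.78 with the widest interval among the genes of the set above 3 counts in both groups (SE 0.44, 95% interval −2.68 to −0.88; edgeR's quasi-likelihood test, adjusted p = 0.000994). Its near-identical copies LGALS9B and LGALS9C had 0 counts in all libraries, and how reads that match several copies were counted is not given, so the level of LGALS9 is uncertain.

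**Figure D2:**
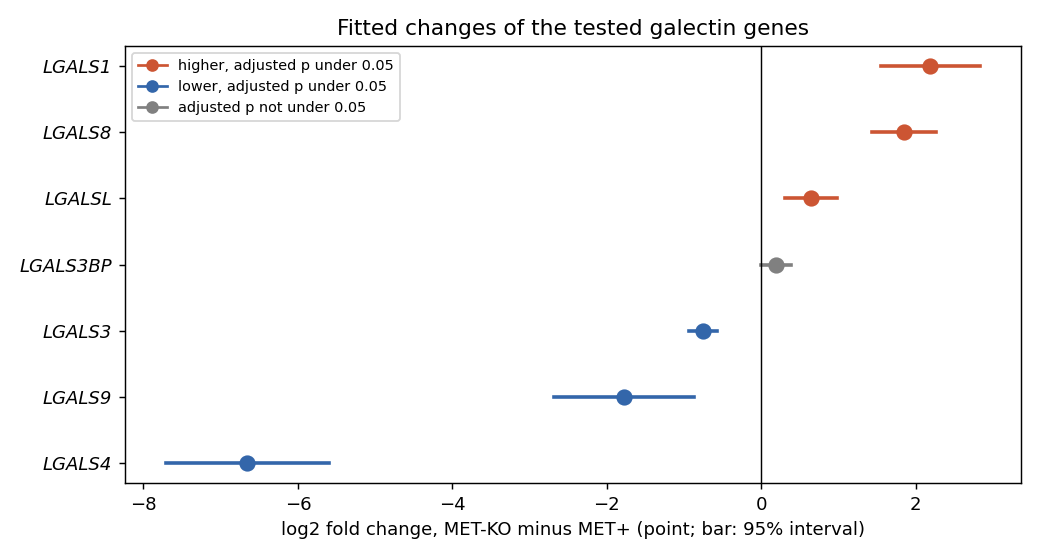
Fitted log2 fold change (MET-KO minus MET+) of the 6 tested genes of the set and LGALSL. Bars are 95% intervals computed from the fold change and the F statistic of edgeR's quasi-likelihood test. For LGALS4 the bar (−7.71 to −5.60) rests on 1 count in each MET-KO library and is narrower than its counting interval. LGALS1, LGALS8 and LGALSL lie above 0, LGALS3, LGALS9 and LGALS4 below, and the interval of LGALS3BP reaches 0.

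Outside the set, 11 further galectin family genes were counted, and 9 of them, with LGALS7, LGALS9B, LGALS9C, LGALS12 and CLC included, were at 0 in every library. LGALS7B held 2 counts in 1 MET+ library. LGALSL, a galectin-like protein that lacks sugar binding, was the 1 gene of these that could be tested. It was at 15.4 and 13.2 CPM in MET+ and 22.3 and 22.5 CPM in MET-KO, with no overlap, and rose by a log2 fold change of 0.65 (SE 0.17; edgeR's quasi-likelihood test, adjusted p = 0.00121).

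QuantSeq gives a single tag per transcript 3′ end, so levels in CPM were set side by side between genes without division by length. In MET+ the order from high to low was LGALS3, LGALS3BP, LGALSL, LGALS4, LGALS8, LGALS9 and LGALS1. In MET-KO it was LGALS3, LGALS3BP, LGALSL, LGALS8, LGALS1, LGALS9 and LGALS4, in which the ranges of LGALSL and LGALS8 overlapped. LGALS4 thus went from the fourth place to the last and LGALS1 from the last to the fifth, and these places were read from 2 libraries a group.

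Summed over all 17 galectin genes, LGALS3BP left out, the level was 386 and 364 CPM in MET+ and 252 and 256 CPM in MET-KO, that is 375 ± 15.9 against 254 ± 3.23 CPM (SD, n = 2). LGALS3 made up 89.9% and 90.4% of the galectin counts in MET+ (95% Clopper-Pearson intervals 88.8 to 90.9 and 89.4 to 91.3) and 79.5% and 78.0% in MET-KO (77.9 to 81.1 and 76.4 to 79.5). It thus remained the main galectin transcript in both groups. The share of LGALS8 was 1.66% and 1.46% against 7.74% and 8.86%, and that of LGALS1 was 0.593% and 0.479% against 3.23% and 3.98%. LGALS4 went from 2.78% and 3.01% to 0.0389% and 0.0359%, and LGALS9 from 1.12% and 0.986% to 0.583% and 0.323%. Shares sum to a fixed total, so a smaller LGALS3 level by itself raises the others.

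The sugars that galectins bind are built in the Golgi by branching and extending enzymes. The list of 17 genes read here holds such enzymes but also other genes. Among these are the transporter SLC35A2 and ST6GAL1, whose sialic acid cap hinders binding, so its counts mix different effects on the ligands. Of the 17 genes, 16 were tested. In MET-KO 4 were higher (MGAT5, MGAT3, GCNT1 and B3GNT2), 6 were lower (GCNT3, MGAT4A, MGAT4B, MGAT1, MAN2A1 and MAN2A2) and 6 did not pass. This is 62.5% called beside 54.1% of all tested genes, for a list chosen with earlier results known, with a median log2 fold change of −0.12 beside 0.01. GCNT3 and MGAT3 passed the filter on low counts only through the group in which they were high, which raises this share. MGAT5, which adds the N-glycan branch favoured by galectin-3, was at 59.4 and 69.5 CPM in MET+ and 262 and 242 CPM in MET-KO. It rose by 1.96 on the log2 scale (SE 0.10; edgeR's quasi-likelihood test, adjusted p = 1.02e-17), the opposite direction to LGALS3. GCNT3, the mucin-type core 2 O-glycan enzyme of the intestine, had 2731 and 3338 counts in MET+ and 0 and 1 in MET-KO, a ratio of 7096 with an exact 95% counting interval of 1273 to 280320.

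The N-glycan branching genes MGAT4A and MGAT4B fell. MGAT4A went from 14.1 and 20.3 CPM to 6.46 and 6.25 CPM (log2 fold change −1.44, edgeR's quasi-likelihood test, adjusted p = 7.23e-07). MGAT4B went from 295 and 302 CPM to 159 and 149 CPM (log2 fold change −0.96, the same test, adjusted p = 8.38e-11), on chromosome 5, where the other 616 tested genes had a median of −0.43. MGAT1 (log2 fold change −0.50) and MAN2A1 (−0.78) lie on the same chromosome. GCNT3 and MAN2A2 (−0.45) lie on chromosome 15, where the 466 tested genes other than GCNT3 had a median of −0.43. MGAT4A lies on chromosome 2, with a median of 0.03. The part of these chromosomes in the result was not tested. ST6GAL1, whose sialic acid cap hinders galectin binding and which was singled out after its values were seen, was at 28.6 and 29.6 CPM against 29.9 and 30.8 CPM, a log2 difference of 0.06 with a 95% interval of −0.21 to 0.33.

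Of 19 glycoproteins known to be bound by galectins, 15 were tested. In MET-KO 6 were higher (CD44, LAMA5, FN1, LAMC1, BSG and LAMP2), 5 were lower (CEACAM5, DPP4, NRP1, TFRC and P4HB) and 4 did not pass (EGFR, ITGB1, LAMP1 and MUC1). The share called was 73.3%, beside 54.1% of all tested genes, for a list chosen with earlier results known, and the median log2 fold change was −0.24. CEACAM5 passed the filter on low counts only through the MET+ group, which raises this share. LAMA5, a laminin chain of the epithelial basement membrane, went from 23.4 and 20.5 CPM to 62.9 and 62.1 CPM (log2 fold change 1.51, edgeR's quasi-likelihood test, adjusted p = 2.0e-12). The adhesion protein CEACAM5 held 392 and 487 counts in MET+ and 0 and 0 in MET-KO, at least 171-fold lower with 3 counts per library as the floor. DPP4, a brush border peptidase, fell from 55.6 and 52.2 CPM to 12.9 and 11.9 CPM (log2 fold change −2.11, the same test, adjusted p = 5.73e-15). NRP1, a coreceptor for growth factors, fell from 28.5 and 24.6 CPM to 9.49 and 8.45 CPM (log2 fold change −1.56, adjusted p = 2.88e-09 by edgeR's test). The immune partners PTPRC and SPN were at 0 in every library, and CD7 and HAVCR2, the receptor of galectin-9, were too low to be tested.

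Galectin-3 and galectin-8 mark damaged endosomes and lysosomes together with autophagy adaptors and nutrient-sensing complexes. All 13 genes of this list were tested: RRAGA and TAX1BP1 were higher in MET-KO, 7 were lower (CALCOCO2, ATG16L1, SQSTM1, SLC38A9, LAMTOR1, PRKAA1 and USP9X) and 4 did not pass. The share called was 69.2%, beside 54.1% of all tested genes, for a list chosen with earlier results known. The 2 higher and 7 lower genes became 2 higher and 3 lower with scaling by library totals alone, which called 7361 of all 13801 tested genes. Under DESeq2 they became 1 higher and 4 lower, beside 5760 of 13801. The list is thus not called more often than its background in every setting. TAX1BP1, an autophagy receptor, went from 119.6 and 120.8 CPM to 364 and 417 CPM (log2 fold change 1.70, edgeR's quasi-likelihood test, adjusted p = 1.2e-16), on chromosome 7, whose other 672 tested genes had a median of 0.50. CALCOCO2, the receptor that galectin-8 recruits, was at 86.3 and 71.5 CPM against 50.5 and 56.6 CPM (log2 fold change −0.56, the same test, adjusted p = 8.14e-05), the opposite direction to LGALS8. ATG16L1, which directs lipidation of autophagy membranes, had a log2 fold change of −0.67 (adjusted p = 0.000321 by edgeR's test), and SLC38A9, an arginine sensor of the lysosome, one of −0.65 (adjusted p = 0.0224 by edgeR's test). SLC38A9 lies on chromosome 5, at the 36.4th percentile of the 616 other tested genes with their median of −0.43, and SQSTM1 (−0.34) and PRKAA1 (−0.50) lie on the same chromosome.

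**Figure D3:**
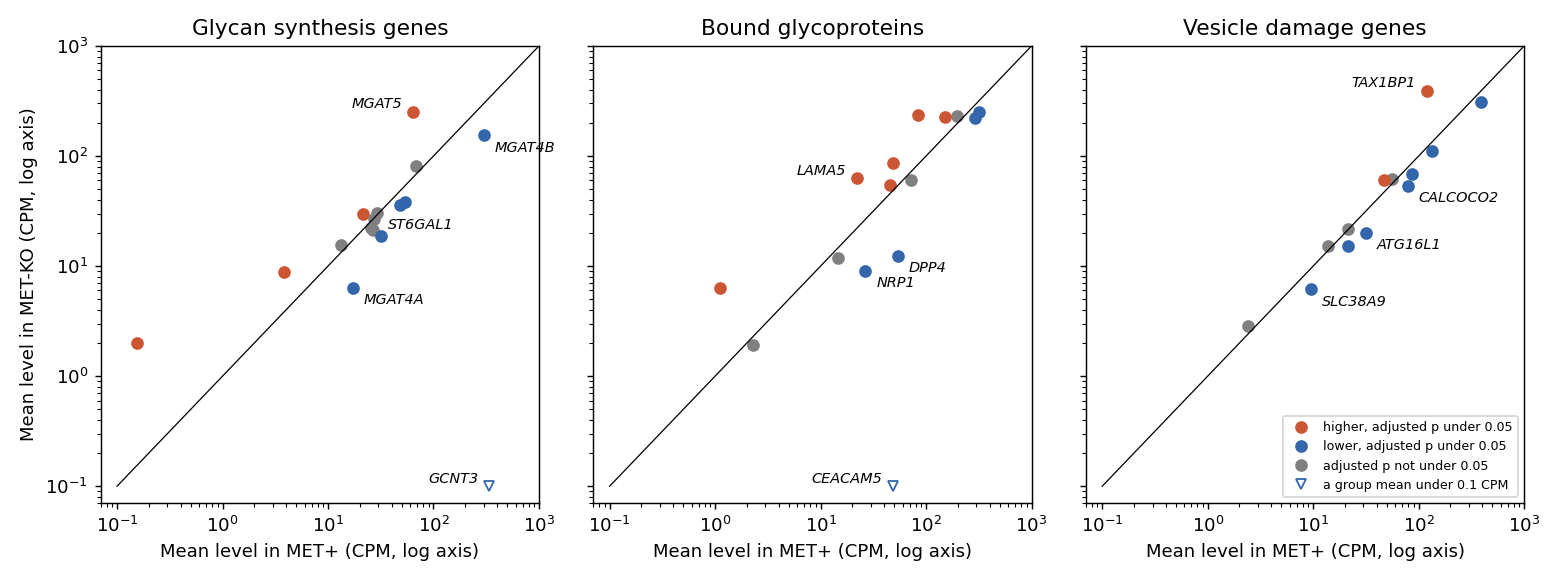
Mean level in MET+ (x axis) and MET-KO (y axis), both in CPM on log axes (n = 2 each), for the tested genes of glycan synthesis, bound glycoproteins and the vesicle damage response, with the diagonal of equal levels. MGAT5, LAMA5 and TAX1BP1 lie above the diagonal, while GCNT3 and CEACAM5 are drawn as open triangles because their MET-KO means are under 0.1 CPM.

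The transcripts whose pattern over the 4 libraries was most like each gene were picked by the Euclidean distance of centred log2 CPM among genes of similar mean level. For LGALS3 the closest of 844 genes was EIF5, a translation factor on the same chromosome 14, at a distance of 0.00353 log2 units, followed by GARS at 0.0545, and 94 genes lay within 0.25. For LGALS3BP they were PDHB (0.025) and TRIM28 (0.0369), with 338 of 1807 genes within 0.25. Fewer genes lay so close to the others. For LGALS8 they were 18 of 4610, led by SNX25 (0.112) and EPS8L3 (0.122), and for LGALS1 7 of 3235, led by ADPRHL1 (0.106) and JAZF1 (0.133). For LGALS9 they were 4 of 2725, led by SUCLA2-AS1 (0.137) and AC110285.7 (0.165). LGALS4 had 1 gene of 3094 within that distance, BCO1 (0.169), followed by C6orf223 (0.251), and both had 0 counts in MET-KO. With 4 libraries in 2 groups, this distance rests largely on the size of the group difference. LGALS8, LGALS1, LGALS9 and LGALS4 have far fewer counts than LGALS3 and LGALS3BP, and the part of counting noise in the distances was not tested.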

How the data were processed

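RNA from LoVo MET+ and MET-KO cells (2 libraries each) was prepared by the authors with QuantSeq 3′ FWD. Per the labels' processing notes, cutadapt 1.16, FastQC 0.11.7, MultiQC 1.5, STAR 2.5.4a, featureCounts 1.6.2 and DESeq2 1.18.1 were used on GRCh38, and the annotation and strand setting are not given in the sources used here. The deposited values are raw counts per Ensembl gene, 58825 rows beside 99 spike-in rows that held 0 counts and were left out. IDs were paired with GENCODE v29 (58552 matched). Genes were filtered with filterByExpr by group, which left 13801, scaled by TMM and tested by edgeR 4.0.16 (R 4.3.3, quasi-likelihood test, group as the only term, Benjamini-Hochberg over all genes tested, threshold 0.05). CPM are TMM-scaled. On simulated counts with 200 genes changed and 13467 tested, 71 of 99 genes changed by 1 log2 unit and 93 of 97 changed by 2 were recovered, with 5 false calls. In the data 54.1% of the tested genes were called, a far larger share, so these rates need not hold for the calls given here. The genes and lists were chosen with earlier results of these data known. From each list, up to 4 called genes of largest change were named, provided that mean log2 CPM reached 3 and the groups were separate, with any at 0 in a group. Genes of likeness had a mean within 1 log2 unit of the member, with 0.1 CPM added. Alternatives were DESeq2 1.42.0 and its size factors, library totals, testing unfiltered genes, a minimum of 10 counts per library, a fold of at least 2, a replicate block and leaving out each library. Replicates of a group differed by more than counting noise (chi-square per degree of freedom 5.45 and 4.86). Intervals of counts and shares cover counting error only.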

Additional observations from a re-analysis of the deposited data

How the results depend on the processing

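Of 58 member fold changes under the alternatives, 56 kept their direction and their side of the threshold. The exceptions were LGALS3BP with library totals alone (log2 fold change 0.29, edgeR adjusted p = 0.00773) and with at least 10 counts in every library (0.23, edgeR adjusted p = 0.0346). Library totals alone moved the median of all genes from 0.01 to 0.11, a shift of 0.10, relative to which LGALS3BP was at 0.18. That scaling called 6 of 6 members and 5 of 13 vesicle damage genes, beside 4361 genes higher and 3000 lower of 13801 tested. It gave a members' median of −0.18. At least 10 counts in every library removed LGALS4 and LGALS9 from the test, which moved the members' median to 1.06. The DESeq2 Wald test called 5760 of 13801 genes and 5 of 13 vesicle damage genes. With a fold of at least 2 also required, 3355 of the 7467 called genes were left, out of 13801 tested. Beside this, 4 of 6 tested members were left (2 higher and 2 lower, LGALS3 at −0.76 being lost). No other galectin gene was left, since LGALSL, at 0.65, passed the test alone. From the lists, 5 of 16 ligand glycan genes, 6 of 15 bound glycoproteins and 1 of 13 vesicle damage genes were left. The cause of the other shifts was not tested.

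Leaving out each library in turn gave log2 fold changes of 1.99 to 2.39 for LGALS1, −0.80 to −0.71 for LGALS3, 0.12 to 0.27 for LGALS3BP, −6.70 to −6.61 for LGALS4, 1.71 to 1.99 for LGALS8 and −2.24 to −1.42 for LGALS9, whose largest edgeR adjusted p was 0.0406 (without MET-KO replicate 2). Then 5 members were called each time, with 6289 to 7083 genes and 6 to 7 vesicle damage genes. The lone library of a group is then assumed to vary like the other group. Replicates of the same number did not deviate together (correlation −0.05), and the sources used here do not say whether they share more than a number. With the replicate number as a block, 7055 genes and 5 members were called and 0 member calls differed. Depth limits LGALS2, the MET-KO level of LGALS4, and LGALS9.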
